A study of Drosophila melanogaster with 4 samples.

Results

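The regions described here are the stretches of the X chromosome that were enriched in ChIP-seq (chromatin immunoprecipitation followed by sequencing) with an antibody to H2Av, in male Drosophila melanogaster cells that had received double-stranded RNA against H2Av itself. They are all enriched regions on X in the list the authors gave for the 2 ChIP replicates as one set, which was 1017 of 6065 regions. Each was matched to the regions on X in the authors' separate lists for replicate 1 (854 regions) and replicate 2 (860 regions) wherever at least 1 bp was shared. The only row marked as depletion lay on another chromosome and was left out.

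The series has 4 samples of S2-DRSC, a cultured male line from late embryos: 2 ChIP samples, taken with the rabbit polyclonal antibody H2AV 9751, and 2 input DNA samples, for which no list was analysed here. All 4 come from cells given 50 µg of the double-stranded RNA (CG5499_RNAi_2), grown for about 4 days, given 200 µg more and fixed with formaldehyde. Cells without the RNA were not analysed here, so no value below measures its effect, and the H2Av level left in the cells is not known from these lists. For ChIP replicate 2 the description field speaks of input DNA; its title and source name both say ChIP, and these were followed. It is not stated that the replicates came from different cultures, and an SD over them may measure technical spread alone.

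H2Av is the only H2A variant of Drosophila and does the work of both H2A.Z, which sits at the starts of many active genes, and H2A.X, which is phosphorylated at DNA breaks. Male flies have a single X, and its genes are transcribed at a raised rate through the MSL complex, which binds X at entry sites, spreads to active genes and acetylates histone H4 at lysine 16. An X list from male cells therefore shows this variant on a chromosome whose active genes also carry dosage compensation. The lists name no genes, and no gene annotation in the coordinates of the files (FlyBase release 5) was used here, so regions are given by position only.

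The X regions were mostly a few kilobases wide, with a long tail of wide ones. Widths in the replicate-set list ran from 1001 to 37471 bp, with a median of 3715 bp, a lower quartile of 1959 bp and an upper quartile of 6421 bp. The median was 3787 bp in replicate 1 and 3588.5 bp in replicate 2, or 3688 ± 140 bp (SD, n = 2). Together the replicate-set regions covered 5.17 Mb, which is 23.1% of X, while the replicates covered 18.9% and 17.9% of it. The 114 regions of 10 kb or more were 11.2% of the X regions and held 33.6% of the covered sequence. By contrast, the 272 regions under 2 kb were 26.7% of the regions and held 7.55% of it.

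Most X regions were seen in both replicates. Of the 1017, 678 (66.7%) overlapped a region of each replicate, beside 65.7% of all regions of the replicate-set list. Another 78 overlapped replicate 1 only, 50 overlapped replicate 2 only, and 211 (20.7%) overlapped neither, beside 21.8% of all regions. The replicate-set list was made from the same samples, so this overlap is built in and was not tested, and the shares on X were close to those over the whole list. Because the 211 regions were narrow, they held 5.91% of the covered sequence of X, against 88.6% for the regions in both replicates.

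Repeatability followed width. All 114 regions of 10 kb or more were found in both replicates, and so were 350 of 357 regions of 4 to 10 kb. At 2 to 4 kb, 207 of 274 were in both and 17 in neither, whereas under 2 kb only 7 of 272 were in both and 194 were in neither. This was not particular to X. On the autosomal arms 2L, 2R, 3L and 3R, 59 of 1188 regions under 2 kb were in both and 809 were in neither. The replicate-set list was made from the same samples, so the width of its regions and their overlap with the replicates were not independent. Such shares do not measure how often narrow replicate regions were repeated. Replicate 1 held 152 X regions under 2 kb and replicate 2 held 148. Only 97 and 65 X regions of any width in those lists had no match in the other. The replicate lists themselves held no X region narrower than 1301 bp in replicate 1 or 1308 bp in replicate 2, while the replicate-set list reached down to 1001 bp. Of the 1017 regions, 110 were narrower than the narrowest replicate region, so absence of such a region from a replicate cannot be read as absence of enrichment there. The authors' score, whose formula is not given in the sources used here, had a median of 1.33 for regions in both replicates, 0.575 for those in a single replicate and 0.565 for those in neither.

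**Figure D1:**
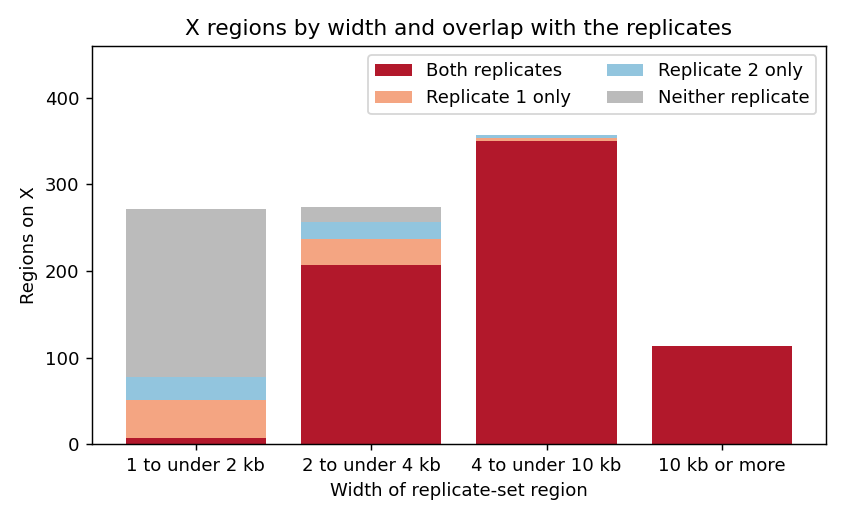
Number of replicate-set regions on X (vertical axis) in 4 classes of width (horizontal axis), with each bar divided by overlap with the replicate lists. Under 2 kb, 194 of 272 regions overlapped neither replicate, and from 10 kb upward all 114 overlapped both.

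Set directly against each other, the replicates shared most of their X regions. Replicate 2 held a match for 757 of the 854 regions of replicate 1 (88.6%), beside 90.1% over all chromosomes. Replicate 1 held a match for 795 of the 860 regions of replicate 2 (92.4%), beside 91.6% over all chromosomes. The unmatched X regions were narrow: the 97 of replicate 1 had a median of 1567 bp and none was wider than 2794 bp, and the 65 of replicate 2 had a median of 1511 bp and a maximum of 2958 bp. Shared X regions had medians of 4062 bp in replicate 1 and 3820 bp in replicate 2. The shared sequence was 3.73 Mb, which made up 88.2% of the replicate 1 cover and 92.7% of the replicate 2 cover. All but 1 region of replicate 1 and all regions of replicate 2 on X overlapped the replicate-set list.

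Wide regions were often one piece in the replicate-set list and several pieces in the replicates. Of the 678 regions in both replicates, 524 (77.3%) matched exactly 1 region in each, with a median width of 4571 bp. The other 154 met 2 or more regions in at least 1 replicate and had a median width of 9139 bp. The most divided had 4 pieces in a replicate, and 4 regions reached that number. Among them, X:1233646-1252812 held 3 regions of replicate 1 and 4 of replicate 2, while X:11893008-11908344 was a single region of 14455 bp in replicate 1 and 4 separate regions in replicate 2. The other 2 were X:1338854-1351682 (2 and 4 pieces in replicates 1 and 2) and X:9446320-9466002 (4 and 3 pieces).

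Cover varied along X, even between parts that lay side by side. X was divided into 20 equal parts of about 1.12 Mb, counted from the low-coordinate end, which is the tip away from the centromere. The most covered was the second, X:1121142-2242283, with 35.3% in replicate 1 and 33.7% in replicate 2, and the third, X:2242284-3363424, directly beside it, was the least covered, with 11.5% and 10.1%. These neighbours held 78 and 22 replicate-set regions. The 15th part, X:15695980-16817120, was covered to 32.7% and 30.4%, and the 18th, X:19059404-20180544, to 26.5% and 25.6%. The last part, nearest the centromere, was covered to 11.2% in replicate 1 and 11.9% in replicate 2, and the first, at the tip, to 16.4% and 16.3%. Replicate 1 was above replicate 2 in 17 of the 20 parts, and the order of the parts was nearly the same in both (Spearman correlation 0.971 over 20 parts, given as a description, since the lists come from one cell line and neighbouring parts are not independent). The share of replicate-set regions found in both replicates ranged from 54.2% in the first part to 81.1% in the 15th.

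**Figure D2:**
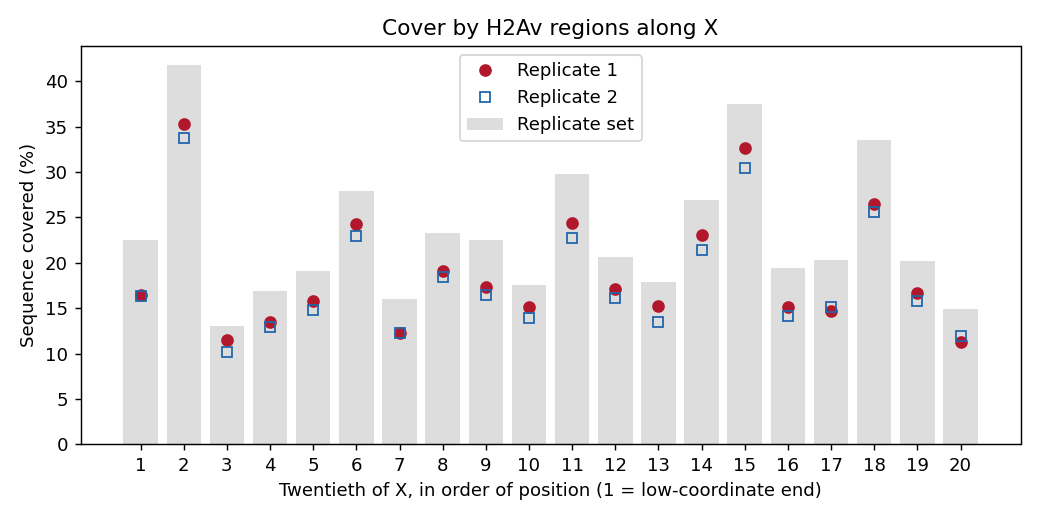
Percent of sequence covered by H2Av regions (vertical axis) in 20 equal parts of X in order of position (horizontal axis), with bars for the replicate-set list and points for each replicate. The second part is the highest, at 35.3% and 33.7% in the replicates, and the third beside it is the lowest, at 11.5% and 10.1%.

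At a finer scale the regions gathered in some windows and left others bare. X holds 224 whole windows of 100 kb. In the replicate-set list 23 of them held no enriched sequence, and in the replicates 33 and 32 held none. All 23 were also empty in both replicates, and of the 29 windows empty in both replicates, the 6 that were not empty in the replicate-set list were covered there to at most 5.41%. The number of regions per window had a variance 2.35 times its mean in the replicate-set list and 2.45 times in each replicate, where regions scattered evenly and independently would give about 1. On the 4 autosomal arms together this ratio was 3.04 in the replicate-set list, 2.68 in replicate 1 and 2.76 in replicate 2. In both replicates X lay below 2L, 3L and 3R and above 2R, so such unevenness was not particular to X. The 22 most covered windows held 26.1% of the covered sequence, and the 112 least covered windows held 16.7%. Empty windows came side by side in at most 2 at a time, at X:3100001-3300000, X:7300001-7500000, X:14200001-14400000, X:18800001-19000000 and X:21600001-21800000. Cover in a window was only weakly related to that in the next (Spearman correlation 0.225 in the replicate-set list, 0.219 in replicate 1 and 0.209 in replicate 2, a description over neighbouring windows).

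Of the 5 most covered windows, 2 lay near each other, with 1 window between them, and the others lay elsewhere along X. The first, X:15800001-15900000, was covered to 69.3% in replicate 1, 65.9% in replicate 2 and 76.2% in the replicate-set list, with 8 regions. X:19500001-19600000 was covered to 69.9%, 66.7% and 72.0% in the same order of lists. X:2000001-2100000 was covered to 57.6%, 59.2% and 68.5%, and it was the only one of the 5 that was higher in replicate 2. X:15600001-15700000 reached 62.8%, 62.4% and 66.9%, and X:13000001-13100000 reached 58.6%, 55.3% and 66.4%. Windows covered over 50% numbered 14 in replicate 1 and 12 in replicate 2, and all 12 were among the 14. Across the 224 windows the median difference in cover between the replicates was 1.23 percentage points and the largest was 9.06.

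Neighbouring X regions were often close. The median gap in the replicate-set list was 3253 bp, the lower quartile was 928 bp, and the 90th percentile was 48247 bp. In the replicates the median gap was 4247 and 4258 bp. A gap under 1 kb separated 272 of 1016 neighbours in the replicate-set list, 169 of 853 in replicate 1 and 170 of 859 in replicate 2. In 1 case neighbours touched: the regions at X:1268206-1277322 and X:1277322-1279008 share 1 base but are listed apart. Joining regions with gaps under 1 kb gave 557 single regions, 132 pairs and 56 groups of 3 or more in the replicate-set list. In replicates 1 and 2, groups of 3 or more numbered 25 and 26, and the largest held 4 and 5 regions. The longest runs of the replicate-set list held 6 regions. These were X:17975428-18025190, with 7 regions of replicate 1 and 6 of replicate 2 inside, and X:806288-840640, with 5 and 4 inside. A run of 5 regions, X:2034976-2089636, was the longest by span among the 3 longest runs (54661 bp) and was covered to 97.1%.

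Regions that stood alone tended to be narrow. Leaving out the first and the last region of X, which have a neighbour on one side only, the 458 regions within 1 kb of a neighbour had a median width of 4100 bp, and 68.3% of them were in both replicates. The 41 regions with at least 20 kb free on both sides had a median width of 2323 bp, and 53.7% were in both. Across 1015 regions with a neighbour on each side, however, width and the distance to the nearer neighbour were close to unrelated (Spearman correlation -0.0848). The most isolated region, X:2841154-2843584, had 156341 bp free on one side and 221009 bp on the other. It was repeated closely, at X:2841188-2843508 in replicate 1 and X:2841183-2843513 in replicate 2. The next most isolated were X:20631634-20633330, found in replicate 2 and not in replicate 1, and X:12112674-12113796, found in neither.

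Long stretches of X held no region. In the replicate-set list 51 stretches of 100 kb or more made up 35.2% of X, and in the replicates 57 and 58 such stretches made up 41.3% and 41.9%. The longest was X:7226901-7572615 (345.7 kb), followed by X:21526607-21844353 (317.7 kb), X:14165857-14472395 (306.5 kb) and X:18790705-19063945 (273.2 kb). The fifth to the tenth were X:20633331-20887565 (254.2 kb), X:3072083-3312051 (239.97 kb), X:12113797-12350565 (236.8 kb), X:2843585-3064593 (221.0 kb), X:18037033-18256901 (219.9 kb) and X:4602631-4795639 (193.0 kb). No region of either replicate was centred in any of the 10. In replicate 1 the fifth was part of a longer stretch of 365.7 kb, X:20527619-20893300, which in replicate 2 was interrupted by 1 narrow region of 1397 bp. The seventh was part of a stretch of about 340 kb in both replicates (340.6 and 340.3 kb), which a replicate-set region of 1123 bp found in neither replicate divided. How much of these stretches reads could be placed in is unknown here, so they cannot be read as lacking H2Av.

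**Figure D3:**
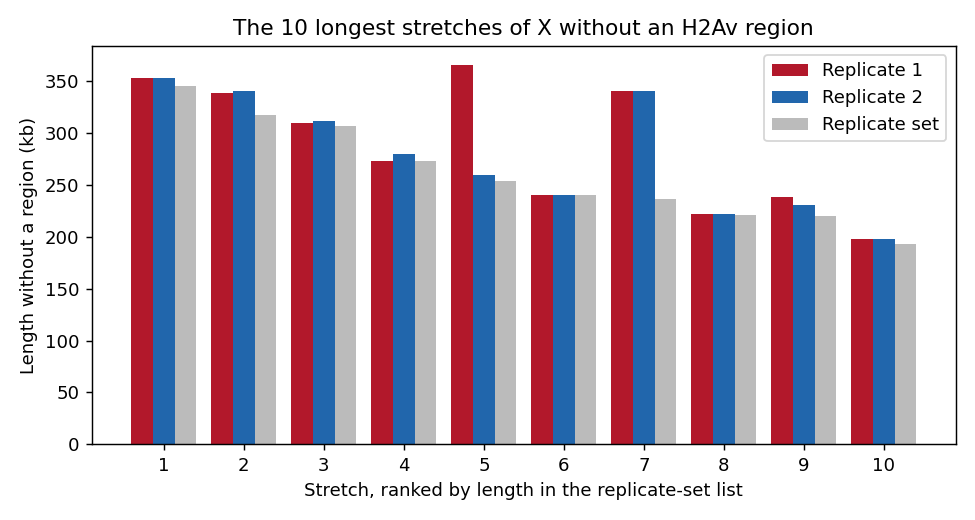
Length in kb (vertical axis) of the 10 longest stretches of X without a region, ranked by the replicate-set list (horizontal axis), with bars for the stretch of each replicate that overlaps it most and for the replicate-set list. The lists differ most at rank 5, where the stretch is 365.7 kb in replicate 1 and 259.1 kb in replicate 2, and at rank 7, where it is 340.6 and 340.3 kb in the replicates and 236.8 kb in the replicate-set list.

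The widest X region, X:13052106-13089576 (37471 bp, score 1.59), was a single region of 37442 bp in replicate 1 and was divided into regions of 11787 and 25529 bp in replicate 2. The second, X:2050866-2088170 (37305 bp, score 2.11), was divided in both replicates at a like place, into 26280 and 8230 bp in replicate 1 and 25874 and 10221 bp in replicate 2. Next in width came X:2590582-2623990 (33409 bp, score 2.21), with 2 regions in replicate 1, 1 of which ran on to 2635540, and 3 in replicate 2. The fourth, X:8034048-8065748 (31701 bp, score 2.08), was divided nearly in the middle in both replicates, into 14828 and 15576 bp and into 14960 and 15476 bp. The other 6 of the 10 widest were X:1747752-1776382, X:1567132-1594244, X:4519028-4545566, X:15462236-15488204, X:2134052-2158606 and X:7769972-7793928, with widths of 23957 to 28631 bp. Of the 10, X:4519028-4545566 alone was 1 region in each replicate, at 26338 and 25250 bp. Each replicate covered at least 87.2% of every one of the 10.

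High scores and great width went together only in part. Across the 1017 regions the Spearman correlation of width and score was 0.779, as a description, since both come from the same reads. Of the 10 highest-scored X regions found in both replicates, 1 was among the 10 widest (X:2590582-2623990), and 2 were under 5 kb: X:1261218-1266152 (4935 bp, score 2.37) and X:7811594-7816184 (4591 bp, score 2.23). In replicate 1 and replicate 2 those regions had widths of 4886 and 4744 bp, and of 4290 and 4296 bp. The others not given among the 6 highest were X:693656-706972 (score 2.304) and X:19504760-19520580 (2.24). The 6 highest were X:1352124-1374230, X:1261218-1266152, X:819402-831134, X:17742356-17756304, X:21474386-21496344 and X:15220472-15231608, with scores of 2.31 to 2.40. Among wide regions the score also reached low values: the lowest of the 114 regions of 10 kb or more was 0.748, against a median of 1.64 for all 114 and 0.861 for X regions under 10 kb.

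At its ends X was enriched close to the limit of the sequence. The first region began 4591 bases in, at X:4592-10670, and was present in replicate 1 (X:5488-10614) and replicate 2 (X:4903-9668). The last ran to the end of the sequence, X:22417254-22422827, and was 1 region in replicate 1 and 2 in replicate 2. In all 3 lists the last region was given with an end past the length of X and was ended there.

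The widest regions that neither replicate held were X:21071114-21075110 (3997 bp, score 0.590), X:18555548-18558950 (3403 bp, score 0.626) and X:11479814-11483130 (3317 bp, score 0.855). The last lay in a crowded place, 971 bp from one neighbour and 973 bp from the other. The first stood more than 25 kb from any (25085 and 27475 bp).

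Set beside the autosomal arms 2L, 2R, 3L and 3R, X differed little in the amount of enriched sequence from all but 2R, which held more. For each measure the difference, X minus the 4 arms together, was taken within each replicate and tested over the replicates with an exact two-sided sign-flip permutation test, whose smallest possible p with 2 replicates is 0.5, so no difference could be called. Cover was 18.4% ± 0.648 on X and 19.6% ± 0.201 on the arms (SD, n = 2 each), lower on X in both replicates (exact permutation p = 0.5). On 2R alone cover was 23.7% ± 0.328 (SD, n = 2), above X in both replicates. Against 2L, 3L and 3R without 2R the difference was 0.350 points in replicate 1 and -0.332 in replicate 2, with a mean of 0.00879. Median width was 3787 and 3588.5 bp on X and 3772.5 and 3701 bp on the arms in replicates 1 and 2, so its difference changed sign between the replicates (exact permutation p = 1). The median gap was longer on X, at 4247 and 4258 bp, than on the arms, at 3948.5 and 3881 bp (exact permutation p = 0.5). The share of regions found in the other replicate was 88.6% and 92.4% on X and 91.2% and 92.1% on the arms (exact permutation p = 1).

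Measures of empty sequence did not all place X on the same side of the arms. Windows of 100 kb with no region made up 14.5% ± 0.316 of X, against 22.0% ± 0.307 on 2L, 18.4% ± 0 on 3L and 19.4% ± 0.507 on 3R (SD, n = 2 each). On 2R they were 11.8% ± 0 (SD, n = 2), so X was not the lowest arm. Against the 4 arms together the difference was -3.57 ± 0.389 points (SD, n = 2), with the same sign in both replicates (exact permutation p = 0.5), but in windows of 50 kb it was 0.471 points, on the other side of 0. Regions of 10 kb or more were 8.31% and 8.02% of the X regions, against 9.98% and 9.69% on the arms (exact permutation p = 0.5). They were fewer still on 3L, at 7.52% and 7.46%, while 2L, 2R and 3R lay above X in both replicates. Long gaps, by contrast, were more frequent on X than on each arm in the replicate lists, but not more than on 3R in the replicate-set list. Stretches of 100 kb or more without a region numbered 25.6 ± 0.315 per 10 Mb on X, against 23.0 ± 0 on 2L, 17.97 ± 1.34 on 2R, 22.2 ± 0.288 on 3L and 23.7 ± 0.507 on 3R (SD, n = 2 each). In the replicate-set list they numbered 22.7 on X, against 21.3 on 2L, 14.2 on 2R, 21.2 on 3L and 23.7 on 3R. Their share of the length was 41.63% on X, below 45.73% on 2L and 41.93% on 3R (replicate means). It was 30.10% on 2R and 41.57% on 3L. The 90th percentile of the gaps was 67179.6 and 66167.8 bp on X in replicates 1 and 2, against 56576.6 and 57980 bp on the arms together (exact permutation p = 0.5), and X was above each arm in both replicates, though over 2L by only 200.8 bp in replicate 2. In the replicate-set list this percentile was 48247 bp on X, under the 52081.6 bp of 3R. It was 48090.6 bp on 2L, 34281 bp on 2R and 45919.4 bp on 3L. The longest stretch without a region was 365.7 and 353.5 kb on X, shorter than on 2L, 2R and 3L, where it was over 500 kb in each replicate, and close to the 369.0 kb of 3R. In all, 16 measures were compared in this way, and after Benjamini-Hochberg adjustment over the 16 no exact permutation p was below 0.571.

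The edges of X regions moved more between the replicates than those of any autosomal arm. On X, 606 regions of replicate 1 matched 1 region of replicate 2 and no other, and that region matched no other region of replicate 1. The replicates put the start of these at places a median of 162 bp apart and the end 151.5 bp apart, against 104 to 111 bp for starts and 101.5 to 112.5 bp for ends on the 4 arms. Both edges lay within 500 bp in 410 of 606 pairs on X (67.7%), against 76.7% on 2L, 79.8% on 2R, 77.2% on 3L and 76.7% on 3R. X was also lowest at 200 bp (34.7% against 48.6% to 50.9%) and at 1000 bp (87.6% against 90.4% to 92.2%). Among pairs 2 to 4 kb wide in replicate 1, 70.3% on X and 75.4% to 83.1% on the arms had both edges within 500 bp. Within 200 bp these shares were 41.0% on X and 53.9% to 56.6% on the arms. Within 1000 bp X was hardly apart from the nearest arm, at 91.02% against 91.08% on 3L and up to 94.5% on 3R. The regions of replicate 2 were the narrower of the pair in 391 of 606 cases on X, with a median difference in width, replicate 2 minus replicate 1, of -120 bp; on the arms that difference was -25 to -53.5 bp. The score differed more as well: the SD of replicate 2 minus replicate 1 across pairs was 0.171 on X and 0.123 to 0.139 on the arms. Each arm gives 1 such value from the same pair of libraries, so there was no replicate of the comparison and it was not tested.

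**Figure D4:**
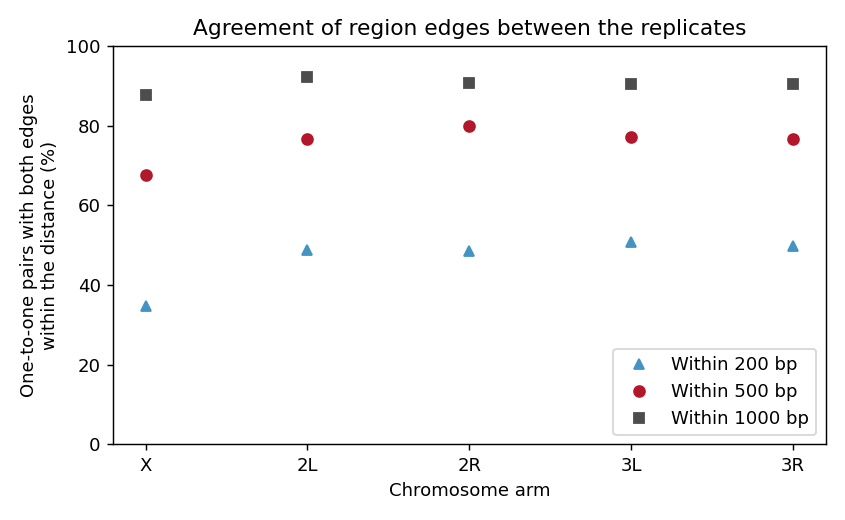
Percent of one-to-one pairs of replicate regions whose start and end both lie within 200, 500 or 1000 bp of each other (vertical axis) on X and on the autosomal arms (horizontal axis). X is the lowest arm at each distance, with 67.7% within 500 bp against 76.7% to 79.8%.

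Regions of a given width carried higher scores on X than on each autosomal arm. Under 2 kb, the median score was 0.756 ± 0.00210 on X, against 0.529 ± 0.00188 on 2L, 0.567 ± 0.00861 on 2R, 0.551 ± 0.0110 on 3L and 0.557 ± 0.00676 on 3R (SD, n = 2 each). The difference from the 4 arms together was 0.205 ± 0.00283 score units (SD, n = 2), with the same sign in both replicates (exact permutation p = 0.5, the smallest possible). From 2 to 4 kb the medians were 1.20 ± 0.0215 on X and 1.04 ± 0.0439 on the arms together, from 4 to 10 kb they were 1.61 ± 0.0501 and 1.47 ± 0.0444, and from 10 kb upward 1.80 ± 0.00566 and 1.60 ± 0.0340 (SD, n = 2 each). In every class X lay above each of the 4 arms in each replicate. At the low end of the replicate lists, the lowest X score was 0.453 in replicate 1 and 0.454 in replicate 2. In each replicate 15 to 38 regions of each autosomal arm (1.57% to 4.64% of its regions) scored lower. These cutoffs are the lowest X scores themselves, so no X region could lie under them. In the replicate-set list X reached down to 0.161, and only 1 to 3 regions of each arm (0.0884% to 0.275%) scored lower. Among replicate-set regions found in neither replicate, the median score was 0.565 on X and 0.411 on the 4 arms. With the formula of the score unknown, these differences are in score units and say nothing of the amount of H2Av.

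**Figure D5:**
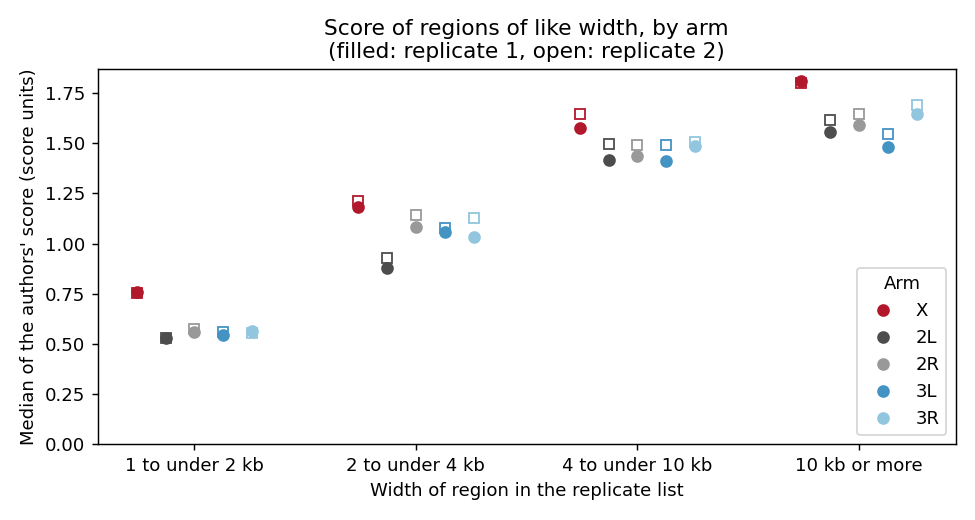
Median of the authors' score in score units (vertical axis) for regions of 4 classes of width (horizontal axis) on X and on each autosomal arm, with a filled point for replicate 1 and an open one for replicate 2. In every class both X points lie above the points of the same replicate on the other arms; under 2 kb they average 0.756 on X and 0.529 to 0.567 elsewhere.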

How the data were processed

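The measurements were lists of enriched regions in GFF3 form, 1 for each of the 2 ChIP replicates and 1 for the replicate set; samples were grouped by their titles. The values deposited by the authors are a start, an end and a score for each region, in FlyBase release 5 per the file headers. The submitters' processing notes list the aligner Bowtie 0.12.7. How regions were called and scored, at what threshold, and whether the inputs entered is not stated in any header or label. The lists hold no reads, so depth is unknown and no counting interval can be given.

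From these, widths (end minus start plus 1), gaps, cover, 100 kb windows and overlaps of at least 1 bp were computed in Python 3.11.15 (pandas 2.3.3, numpy 2.4.6, and scipy 1.17.1 for the tests), and plots were drawn with matplotlib 3.10.9. The functions were checked on simulated regions. Differences between X and the autosomal arms used an exact sign-flip permutation test over the replicates. The regions named are the widest, the highest-scored, the longest empty stretches, the densest windows, the longest runs, the most isolated, the most divided and the widest found in neither replicate; the touching pair, the end regions and the comparisons of empty windows, wide regions, edges and score by width were added after their values were seen. The members and lists were chosen with earlier results of these data known.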

Additional observations from a re-analysis of the deposited data

How the results depend on the processing

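The number of X regions, 1017, was 857 as the mean of the replicate lists and 678 for regions in both replicates. It was 928 after merging neighbours within 200 bp and 509 in the upper part by score, from the median of the X regions upward. Median width moved to 5336 bp for regions in both replicates, 3961 bp after merging and 6139 bp in the upper part. The median gap moved to 4252.5 bp as the mean of the replicates and to 5429, 3825 and 7409 bp in those same settings. Cover of X moved to 18.4% in the replicates, 20.4% for regions in both and 17.3% in the upper part. The share of X regions in both replicates was 63.1% when each had to cover 50% of a region, 74.8% for regions at least as wide as the narrowest of the replicates and 98.6% in the upper part. The mean share found in the other replicate, 90.5%, was 80.0% at a reciprocal overlap of 50% and 99.5% in the upper part, and ranged from 88.6% to 92.4% with 1 replicate left out.

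Windows without a region, 10.3% at 100 kb, were 28.8% at 50 kb, 2.68% at 200 kb, 14.3% with windows shifted by 50 kb, 14.5% in the replicates and 16.1% for regions in both. The longest stretch without a region was 359.6 kb on average in the replicates and 364.2 kb for regions in both. The variance over the mean was 1.93 at 50 kb, 3.07 at 200 kb, 2.52 with shifted windows and 2.45 in the replicates. Regions near a neighbour, 45.2% at 1 kb, were 30.0% at 500 bp, 63.3% at 2 kb and 36.1% at 1 kb in the replicates.

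Some differences between X and the arms changed sign. For these differences the upper part by score was cut at the median of each replicate list over all chromosomes, not at the median of X. The median score in the replicates was 1.33 on X and 1.21 on the arms together, so this cut need not keep like shares of both. Cover, -1.15 points, was 0.777 in the upper part by score and ranged from -1.47 to -0.837 with 1 replicate left out. Without 2R the mean difference in cover was 0.00879, and the replicates had opposite signs. Median width, -49 bp, was 90 bp in the replicate-set list and ranged from -112.5 to 14.5 bp with 1 replicate left out. The median gap, 337.75 bp, was -3268.5 bp in the upper part and ranged from 298.5 to 377 bp with 1 replicate left out. The share found in the other replicate, -1.09 points, ranged from -2.54 to 0.356 with 1 replicate left out. Empty windows, -3.57 points, were 0.471 at 50 kb and ranged from -3.85 to -3.30 with 1 replicate left out. The lower agreement of edges on X kept its sign at 200 bp (-14.9 points) and at 1 kb (-3.27), and so did the higher score of narrow X regions in the replicate-set list (0.153) and with 1 replicate left out (0.203 to 0.207). The causes of the changes were not tested. The alternatives for empty windows, edges and score by width were chosen after seeing the data. No paired analysis was possible because input samples, which share replicate numbers with the ChIP samples, were not analysed here; this concerns ChIP against input, and X minus the arms was already taken within each replicate. With depth unknown, a region missing from a list cannot be read as absent.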

Other observations

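By median distance, the X regions that neither replicate held lay about as near to well-repeated regions as those held by a single replicate. The nearest region found in both replicates lay at a median of 2657 bp from the 211 regions found in neither, 2641 bp from the 128 found in a single replicate and 1897 bp from the 678 found in both. Of the regions found in neither, in a single replicate and in both, 61 (28.9%), 42 (32.8%) and 231 (34.1%) lay within 1 kb of such a region. At least 20 kb away were 19 of the 211, 18 of the 128 and 52 of the 678. For regions found in neither replicate the same median distance was 2799 bp on 2L, 3435 bp on 3L and 2613 bp on 3R. For regions found in a single replicate it was 2739, 2908 and 3223 bp in the same order, so which class lay nearer differed between arms. The distance was not taken on 2R, so these values do not cover all the autosomal arms. These distances have no replicate and were not tested.

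Widths of neighbouring regions on X were close to unrelated, with a Spearman correlation of 0.0492 over 1016 neighbours in the replicate-set list, given as a description. The 114 regions of 10 kb or more followed each other at a median distance of 122.0 kb, and the longest stretch of X between 2 of them was 1191 kb.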
